A study of Homo sapiens with 15 samples.

Results

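Collagens are the main structural proteins of the extracellular matrix, and a small set of enzymes and chaperones makes them fit for secretion and assembly. The genes described here are those whose symbol named a collagen alpha chain, a subunit of prolyl 4-hydroxylase (P4HA1 to P4HA3 and P4HB), a lysyl hydroxylase (PLOD1 to PLOD3), a lysyl oxidase (LOX and LOXL1 to LOXL4), a collagen galactosyltransferase (COLGALT1, COLGALT2), the chaperone SERPINH1, the procollagen proteinase BMP1, or its enhancers PCOLCE and PCOLCE2. This rule used names only and took 56 of 17360 gene symbols in the series, 38 of them chains and 18 of them enzymes, chaperones or enhancers. RNA was sequenced from A375, an established human malignant melanoma cell line grown in culture, in 15 libraries that formed 5 groups of 3. The first experiment held A375 with an empty vector and vehicle, A375 overexpressing VAV1 with vehicle, and A375 overexpressing VAV1 with saracatinib. It had no empty vector group with saracatinib, so effects of saracatinib that need VAV1 cannot be told from those that do not. The second held A375 with an empty vector and A375 carrying RAC1 P29S, with no treatment named for either. The vector's promoter, the number of clones, the dose of saracatinib and the time of treatment were not given in the sources used here.

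Each collagen molecule is a trimer of alpha chains wound into a triple helix, and the chains that join in a trimer are set by the type: fibrils are built from types such as I, II, V and XI, the basement membrane network from type IV, and beaded filaments from type VI. In the endoplasmic reticulum prolyl 4-hydroxylase stabilises the helix, lysyl hydroxylases and galactosyltransferases prepare lysines, and SERPINH1 binds the folded trimer. Outside the cell BMP1 and its enhancers trim procollagens, and lysyl oxidases start the crosslinks that hold the polymers together. VAV1 is a signalling protein that is normally made in blood cells and is activated through phosphorylation by Src-family kinases, saracatinib inhibits those kinases, and RAC1 P29S is a RAC1 mutant found in melanoma that cycles rapidly to the active state.

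Values are given on the scale on which they were deposited, log2(normalized count + 1), in the order of replicates 1, 2 and 3. The summed normalized counts per library lay between 14443918 and 16262759. Because counts had already been normalized, raw sequencing depth is not known. Correlations of libraries over the genes tested in each experiment were 0.981 to 0.987 within a group and 0.942 to 0.967 between groups of an experiment. VAV1 was at 1.90, 2.49 and 2.28 in the empty vector with vehicle, at 13.93, 13.86 and 13.94 with VAV1 and at 14.10, 14.16 and 14.11 with VAV1 and saracatinib. RAC1 was at 11.87, 11.90 and 11.88 in the untreated empty vector and at 14.95, 14.89 and 14.95 with RAC1 P29S. The characteristics field of the RAC1 P29S libraries reads empty vector while their titles name RAC1 P29S, and the RAC1 level followed the titles. These values do not tell mutant from wild-type RAC1. Labels do not say whether replicates came from separate cultures, so p-values measure the spread between these libraries, which may be technical. Of 10 melanocyte lineage markers (8 of them with values in the first experiment), the summed normalized count was 16175 to 16203 in the empty vector with vehicle, 4160 to 4278 with VAV1 and 5591 to 5779 with VAV1 and saracatinib. In the second experiment it was 17767 to 18540 in the empty vector and 7582 to 7775 with RAC1 P29S. Summed counts of 12 fibroblast markers (10 and 8 of them with values) were 437 to 534 in the first experiment and 247 to 349 in the second. Single markers moved in both directions. Of 7 tested, 2 were higher and 1 lower with VAV1 (23.6% and 20.1% of all genes), with changes of -2.47 to 3.83. Of 6 tested, 2 were higher and 1 lower with RAC1 P29S (15.6% and 15.5%), with changes of -1.85 to 0.93. FAP averaged 0.36 in the empty vector with vehicle and 4.19 with VAV1, and ISLR 5.32 and 2.85. Of the 10 fibroblast markers with values in the first experiment, MFAP5 was under a normalized count of 10 in every library, as it was among the 8 of the second. TYRP1, DCT and TYR, which melanocytes use to make pigment, were under 10 or without a value in most groups. Of the 6 melanocyte markers tested, 4 were lower and 1 higher with VAV1 (20.1% and 23.6% of all genes tested). With RAC1 P29S 4 were lower and 1 higher (15.5% and 15.6%). SOX10, ERBB3, S100A1 and S100B were the lower ones, and MITF, the lineage's transcription factor, was the higher one (1.57 ± 0.11 with VAV1 and 1.23 ± 0.11 with RAC1 P29S). The melanocyte sums thus fell and MITF rose with VAV1 and with RAC1 P29S, and their part in the collagen results was not tested.

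Of the 56 genes, 54 had values in the first experiment, 53 in the second and 51 in both. A gene was tested where its normalized count was at least 10 in at least 3 libraries of the experiment, which left 44 genes (28 chains) in the first and 41 (25 chains) in the second. All 41 were tested in both. Per kilobase of the longest coding transcript, the chain with the highest mean normalized count in the empty vector with vehicle was COL4A2 at 2221, followed by COL9A3 at 1453 and COL4A1 at 1176. COL4A2 made up 31.0% of the summed per-kilobase level of all chains there, 29.4% with VAV1 and 25.1% with VAV1 and saracatinib. In the untreated empty vector COL9A3 (29.6%) and COL4A2 (29.5%) were level at the top, and with RAC1 P29S COL4A2 led with 35.2% and COL9A3 held 15.8%. COL4A2, COL4A1 and COL9A3 were thus the 3 highest chains in both empty vector groups and with RAC1 P29S. With VAV1 COL5A2 (433) stood above COL9A3 (322), and with VAV1 and saracatinib COL6A1 (408) stood above COL4A1 (371). The type I chains, which lead in fibroblasts, were low: COL1A1 averaged at most 6.21 in any group and COL1A2, with values in the first experiment only, stayed at or under 2.79 in every library.

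VAV1 lowered most of the collagen genes tested. With VAV1, 27 of 44 were lower and 5 were higher than in the empty vector (limma, adjusted p under 0.05 over all genes tested), where 20.1% of all 14410 genes tested were lower and 23.6% were higher (43.7% in either direction). Their median log2 fold change was -0.53, against 0.02 over all genes tested. The 27 were 15 chains and 12 enzymes or other helpers, and the 5 higher genes were COL8A1, COL12A1, COL13A1, COL17A1 and PLOD2. RAC1 P29S gave 24 lower and 11 higher of 41, where 15.5% of all 14036 genes tested were lower and 15.6% were higher (31.1% in all), with a median of -0.30 against -0.00 over all genes. Adding saracatinib to VAV1 cells gave 18 higher and 11 lower of 44, where 18.3% of all genes were higher and 19.1% lower (37.3% in all), with a median of 0.13 against -0.01. Changes beyond 2-fold among called genes were found for 17 of 44 genes with VAV1 (10.2% of all genes), 13 of 44 with saracatinib (5.21%) and 14 of 41 with RAC1 P29S (7.53%). VAV1 against empty vector and saracatinib against vehicle share the VAV1 vehicle libraries, so a gene that is low by error in those 3 libraries moves down in the first comparison and up in the second. On this scale fold changes of low genes are understated. Groups of 3 libraries without overlap were common among all genes. With VAV1, 4064 of 14410 genes lay wholly above the empty vector and 3530 wholly below. With saracatinib these were 3468 and 3646, and with RAC1 P29S 3170 and 3147 of 14036. Collagen genes gave 6 and 28 of 44, 19 and 11 of 44, and 10 and 24 of 41. A lack of overlap named below is to be read against these counts. For 30 of the 56 genes GENCODE 29 has another gene on the opposite strand, and whether strand was used in counting was not given in the sources used here.

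**Figure D1:**
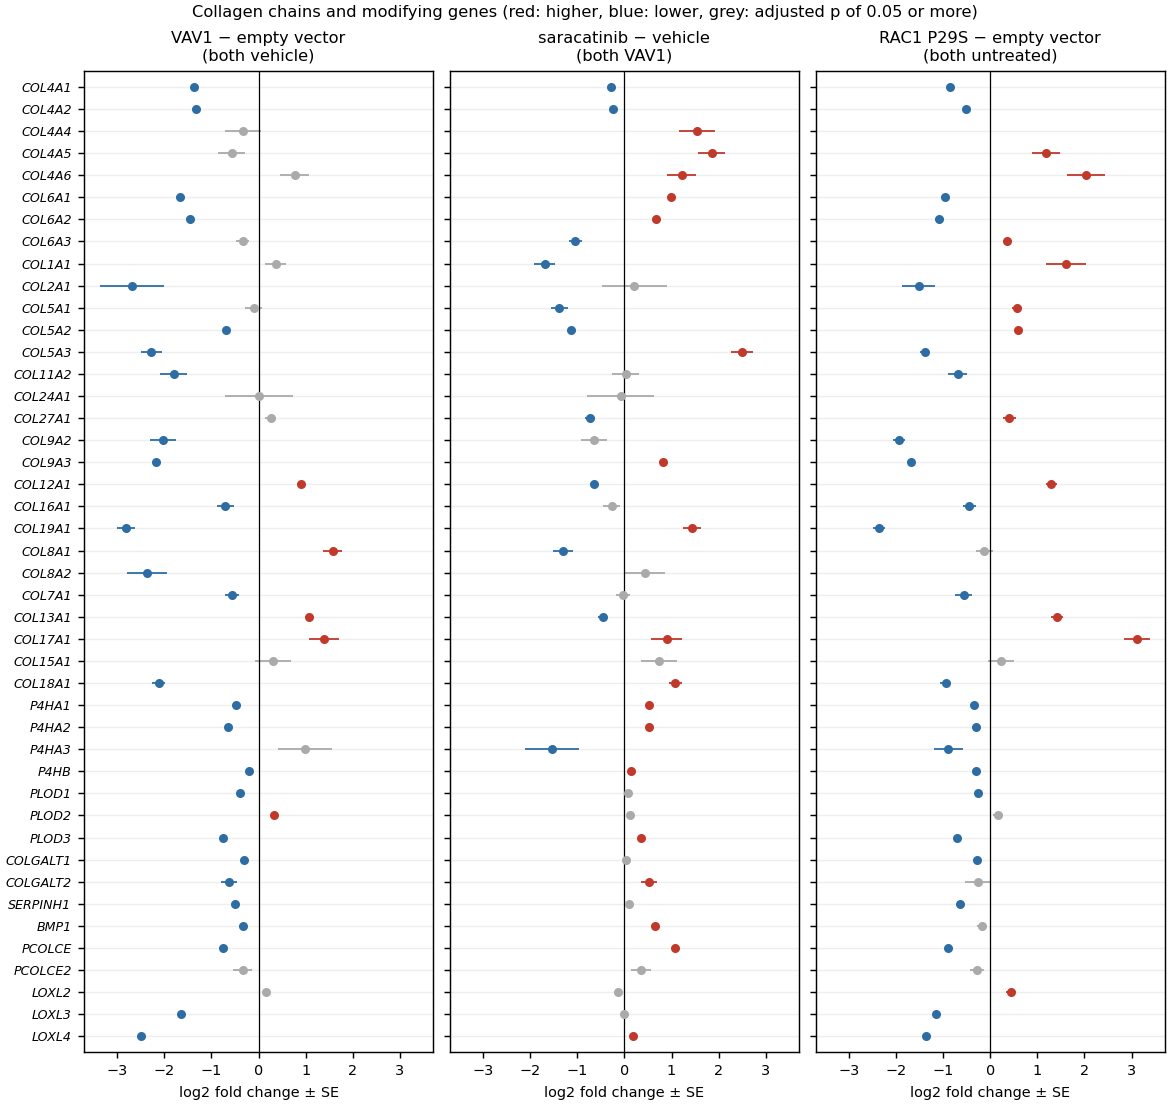
Log2 fold change with its standard error (horizontal axis) for the tested collagen chains and modifying genes (vertical axis, ordered by family) in 3 comparisons of 3 libraries against 3; red points were higher, blue points lower and grey points had an adjusted p of 0.05 or more. Blue points prevail with VAV1 (27 of 44) and RAC1 P29S (24 of 41), and red and blue are mixed with saracatinib (18 higher, 11 lower).

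The type IV chains did not all move in the same direction. COL4A1 and COL4A2 form the common basement membrane trimer and fell with VAV1 and with RAC1 P29S, whereas COL4A5 and COL4A6, which join in a second trimer, rose with RAC1 P29S and with saracatinib. COL4A1 was at 12.98, 12.84 and 12.95 in the empty vector with vehicle, 11.62, 11.55 and 11.49 with VAV1 and 11.25, 11.19 and 11.33 with VAV1 and saracatinib. COL4A2 was at 13.84, 13.78 and 13.82, 12.36, 12.58 and 12.50 and 12.24, 12.13 and 12.32 in the same groups. For both genes every VAV1 library lay below every empty vector library, and every saracatinib library lay below every VAV1 library. The log2 fold change with VAV1 was -1.37 ± 0.05 (SE; adjusted p = 2.00e-10) for COL4A1 and -1.33 ± 0.06 (SE; adjusted p = 9.85e-10) for COL4A2. Saracatinib moved COL4A1 by -0.29 ± 0.05 (SE; adjusted p = 7.22e-04) and COL4A2 by -0.25 ± 0.06 (SE; adjusted p = 0.00464), away from the empty vector level. With quantile normalization the saracatinib effect on COL4A2 was -0.12 and no longer passed (adjusted p = 0.116). In the second experiment COL4A1 was at 13.18, 13.27 and 13.18 without and 12.33, 12.30 and 12.41 with RAC1 P29S, a change of -0.86 ± 0.05 (SE; adjusted p = 3.41e-07). COL4A2 was at 13.91, 14.04 and 13.89 without and 13.41, 13.44 and 13.45 with RAC1 P29S, a change of -0.51 ± 0.05 (SE; adjusted p = 1.43e-05). The groups did not overlap for either gene.

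COL4A5 was at 6.24, 6.98 and 7.18 in the empty vector with vehicle, 6.58, 5.79 and 6.32 with VAV1 and 8.36, 8.26 and 7.61 with VAV1 and saracatinib. The empty vector and VAV1 libraries overlapped (-0.57 ± 0.28, adjusted p = 0.118), and all saracatinib libraries stood above both groups (1.85 ± 0.28 against VAV1 vehicle, adjusted p = 2.65e-04). COL4A6 was at 3.49, 3.94 and 2.93, 4.07, 4.19 and 4.41 and 5.43, 5.31 and 5.58 in those groups, low in all of them, with a saracatinib effect of 1.22 ± 0.31 (SE; adjusted p = 0.00718) and a VAV1 effect of 0.77 ± 0.31 that did not pass (adjusted p = 0.06). Without RAC1 P29S COL4A5 was at 5.53, 4.51 and 4.42 and COL4A6 at 1.96, 2.66 and 2.75. With RAC1 P29S COL4A5 was at 5.97, 6.15 and 5.90 and COL4A6 at 4.91, 4.43 and 4.13, and neither gene's groups overlapped. The changes were 1.19 ± 0.30 (SE; adjusted p = 0.0125) for COL4A5 and 2.03 ± 0.41 (SE; adjusted p = 0.0038) for COL4A6. With a pseudocount of 16 in place of 1 the COL4A6 changes shrank to 0.87 with RAC1 P29S and 0.80 with saracatinib, both still called. COL4A4, a chain of the third type IV trimer, was at 3.40, 2.92 and 3.46 in the empty vector with vehicle, 3.23, 2.75 and 2.81 with VAV1 and 4.97, 4.24 and 4.21 with saracatinib, near the limit for testing. Its saracatinib effect was 1.54 ± 0.38 (SE; adjusted p = 0.00582), or 0.72 with a pseudocount of 16. COL4A3, its partner, stayed at or under 4.09 in every library and was not tested.

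**Figure D2:**
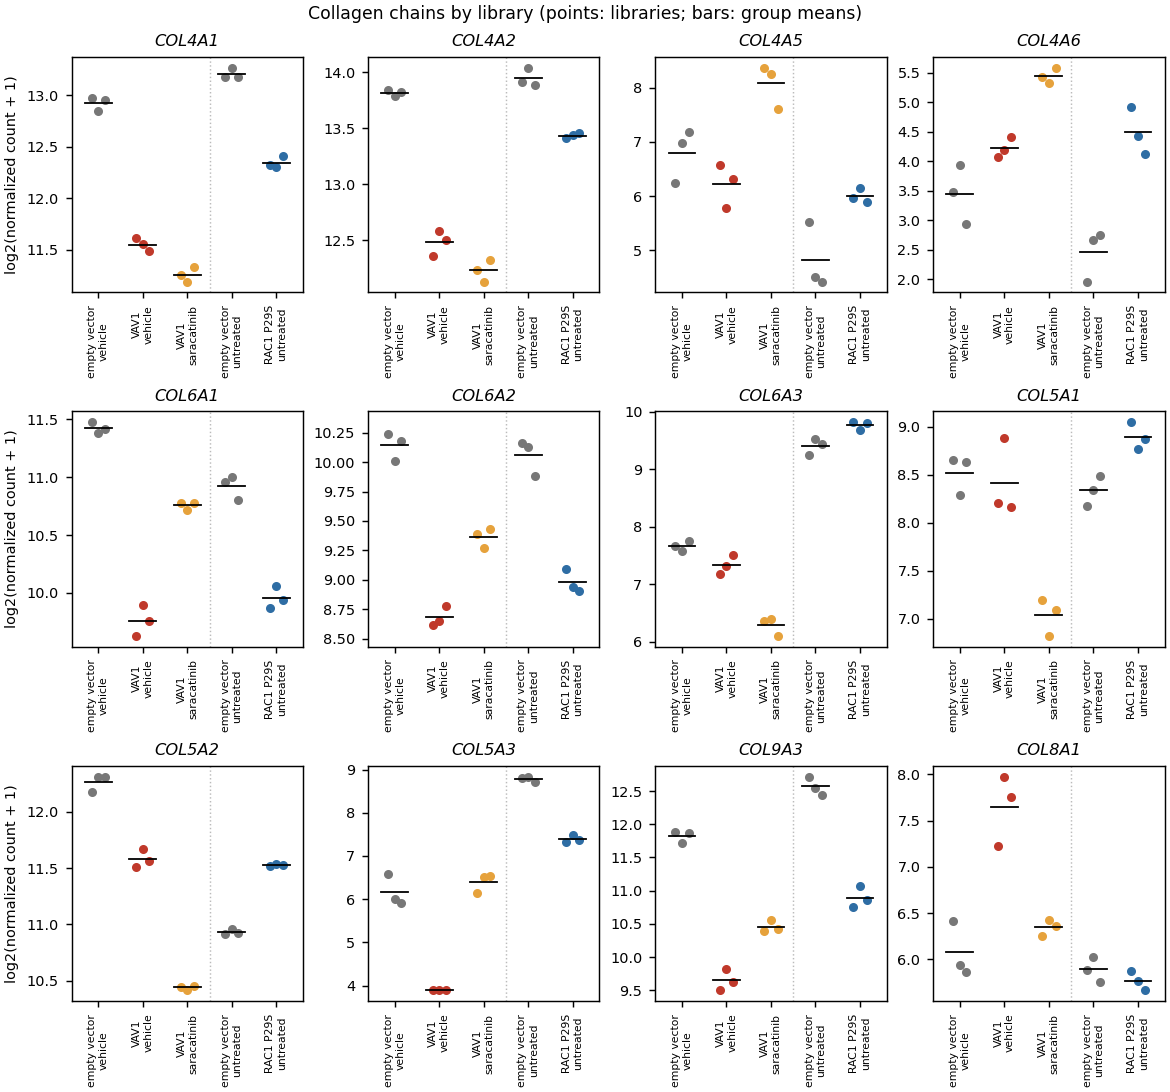
Level of 12 collagen chains (vertical axes, log2(normalized count + 1), each panel with its own range) in each of the 15 libraries (points) with the group mean (bars), the dotted line separating the experiments. COL4A1 and COL4A2 fall with VAV1 and RAC1 P29S, COL4A5 and COL4A6 rise with saracatinib and RAC1 P29S, and COL5A2 falls with VAV1 but rises with RAC1 P29S.

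Type IV chain genes lie head to head in pairs in the genome. The promoters of 2 pairs are shown, COL4A1 with COL4A2 and COL4A5 with COL4A6. They were chosen because the first pair moved together in all 3 comparisons and the second with saracatinib and RAC1 P29S, but not with VAV1. COL4A3 and COL4A4 on chromosome 2 are also such a pair and are not shown, and COL4A3 was not tested. COL4A1 lies on chromosome 13 from 110148963 to 110307233 on the minus strand and COL4A2 from 110305812 to 110513209 on the plus strand (GRCh38, GENCODE 29), so the annotated genes overlap at their starts. COL4A5 lies on chromosome X from 108439844 to 108697545 on the plus strand and COL4A6 from 108155607 to 108439497 on the minus strand. RefSeq windows from 250 bases before to 50 bases after the start site (GRCh38.p14) follow, each 5′ to 3′ on the gene's own strand, with capitals marking CCAAT read on either strand.
COL4A1, chr13:110307108-110307407, minus strand: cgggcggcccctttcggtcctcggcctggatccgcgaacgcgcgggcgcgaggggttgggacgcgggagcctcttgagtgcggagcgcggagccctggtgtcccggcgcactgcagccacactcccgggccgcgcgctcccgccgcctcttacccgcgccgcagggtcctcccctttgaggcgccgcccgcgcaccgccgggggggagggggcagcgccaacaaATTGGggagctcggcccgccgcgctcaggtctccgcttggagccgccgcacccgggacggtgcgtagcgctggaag
COL4A2, chr13:110307034-110307333, plus strand: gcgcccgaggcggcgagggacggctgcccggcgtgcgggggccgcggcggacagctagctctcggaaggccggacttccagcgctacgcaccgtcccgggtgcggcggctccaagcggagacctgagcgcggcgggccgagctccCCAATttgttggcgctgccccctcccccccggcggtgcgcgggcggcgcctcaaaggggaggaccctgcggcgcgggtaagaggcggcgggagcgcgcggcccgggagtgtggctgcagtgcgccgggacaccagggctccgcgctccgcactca
COL4A6, chrX:108439409-108439708, minus strand: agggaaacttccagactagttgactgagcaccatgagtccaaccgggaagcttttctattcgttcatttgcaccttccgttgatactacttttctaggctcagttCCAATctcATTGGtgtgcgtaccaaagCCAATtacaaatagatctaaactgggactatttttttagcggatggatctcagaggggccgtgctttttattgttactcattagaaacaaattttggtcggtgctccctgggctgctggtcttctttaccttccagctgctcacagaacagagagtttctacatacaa
COL4A5, chrX:108439588-108439887, plus strand: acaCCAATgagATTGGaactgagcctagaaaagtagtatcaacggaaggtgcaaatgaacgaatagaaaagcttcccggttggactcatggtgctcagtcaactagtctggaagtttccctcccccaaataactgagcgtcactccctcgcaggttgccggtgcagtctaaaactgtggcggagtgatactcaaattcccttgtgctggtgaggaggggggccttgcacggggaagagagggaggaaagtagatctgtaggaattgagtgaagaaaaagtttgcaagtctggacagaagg
The COL4A1 and COL4A2 windows share 226 bases, their start sites are 127 bases apart, and the single CCAAT match of each window is the same stretch read from opposite strands. The COL4A6 and COL4A5 windows share 121 bases with start sites 380 apart, and the shared stretch holds 2 CCAAT matches on opposite strands. COL4A6 has a second window in the table that is not shown. RefSeq windows were matched for 43 of the 56 genes (57 windows). CCAAT, on either strand, was found in 29.8% of these 57 and in 34.6% of all 34943 windows of this length. GGGCGG was found in 57.9% and 44.9%, and TGANTCA in 0 and 7.72%. The 3 motifs were counted independently, also where matches overlap, and were chosen with the expression results known. A match is a string of letters and not a measured binding site.

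Type VI collagen forms beaded filaments from COL6A1, COL6A2 and COL6A3 chains, and here the first 2 chains moved apart from the third. COL6A1 was at 11.48, 11.38 and 11.41 in the empty vector with vehicle, 9.63, 9.89 and 9.76 with VAV1 and 10.78, 10.72 and 10.78 with VAV1 and saracatinib. COL6A2 was at 10.24, 10.01 and 10.18, 8.62, 8.65 and 8.78 and 9.39, 9.27 and 9.43. For both chains the saracatinib libraries lay between the other groups without touching them. VAV1 changed COL6A1 by -1.66 ± 0.07 (SE; adjusted p = 2.36e-10) and COL6A2 by -1.46 ± 0.08 (SE; adjusted p = 9.11e-09). Against VAV1 vehicle, saracatinib raised COL6A1 by 0.996 ± 0.07 (SE; adjusted p = 8.86e-08) and COL6A2 by 0.68 ± 0.08 (SE; adjusted p = 2.48e-05), and both remained below the empty vector (-0.67 ± 0.07 and -0.78 ± 0.08). COL6A3 was at 7.66, 7.58 and 7.75, 7.17, 7.31 and 7.50 and 6.35, 6.39 and 6.10 in the same groups, lowest in the saracatinib libraries. Its change was -0.34 ± 0.14 with VAV1 (adjusted p = 0.0673) and -1.04 ± 0.14 (SE; adjusted p = 6.02e-05) with saracatinib. In the second experiment COL6A1 was at 10.96, 11.00 and 10.80 without and 9.87, 10.06 and 9.94 with RAC1 P29S (-0.96 ± 0.07, adjusted p = 4.56e-06). COL6A2 was at 10.16, 10.13 and 9.88 without and 9.09, 8.94 and 8.91 with RAC1 P29S (-1.08 ± 0.09, adjusted p = 1.03e-05). COL6A3 was at 9.24, 9.53 and 9.43 without and 9.81, 9.67 and 9.80 with RAC1 P29S, a rise of 0.37 ± 0.09 (SE; adjusted p = 0.00942). COL6A1 and COL6A2 thus fell with RAC1 P29S while COL6A3 rose, and no groups overlapped for any of the 3. COL6A1 and COL6A2 are neighbours on chromosome 21 (45981737 to 46005050 and 46098097 to 46132849, both plus strand), and COL6A3 is on chromosome 2 (237324003 to 237414375, minus strand).

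Type V collagen, which sits inside type I fibrils and sets their width, also split by chain. COL5A3 had the largest saracatinib effect of the 44 genes tested. It was at 6.58, 6.001 and 5.92 in the empty vector with vehicle, 3.90, 3.89 and 3.90 with VAV1 and 6.14, 6.51 and 6.53 with VAV1 and saracatinib. The VAV1 libraries were well below the rest, and the saracatinib and empty vector libraries overlapped. The change was -2.27 ± 0.23 (SE; adjusted p = 3.19e-06) with VAV1 and 2.49 ± 0.23 (SE; adjusted p = 1.94e-06) with saracatinib, which left a difference from the empty vector of 0.22 ± 0.23 (95% interval -0.27 to 0.71). COL5A2 fell at both steps. It was at 12.18, 12.31 and 12.31, 11.51, 11.67 and 11.57 and 10.45, 10.41 and 10.46 in these groups, each group below the one before it. VAV1 changed it by -0.69 ± 0.05 (SE; adjusted p = 2.59e-07) and saracatinib by a further -1.14 ± 0.05 (SE; adjusted p = 3.32e-09). COL5A1, the chain present in most type V trimers, was at 8.65, 8.29 and 8.63, 8.20, 8.88 and 8.17 and 7.19, 6.82 and 7.09. Empty vector and VAV1 libraries overlapped for COL5A1 (-0.11 ± 0.18, adjusted p = 0.678), and saracatinib lowered it by -1.38 ± 0.18 on the log2 scale (adjusted p = 7.24e-05).

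With RAC1 P29S the 3 type V chains again differed. COL5A1 was at 8.18, 8.34 and 8.49 in the untreated empty vector and 9.05, 8.77 and 8.87 with RAC1 P29S (0.56 ± 0.11, adjusted p = 0.00312). COL5A2 was at 10.92, 10.96 and 10.93 and 11.52, 11.53 and 11.53 (0.59 ± 0.05, adjusted p = 4.98e-06). COL5A3 was at 8.80, 8.84 and 8.72 and 7.33, 7.49 and 7.37 (-1.39 ± 0.10, adjusted p = 2.65e-06). COL5A1 and COL5A2 rose, COL5A3 fell, and no groups overlapped. COL1A1, the major chain of type I fibrils, was at 5.99, 5.63 and 5.93 in the empty vector with vehicle, 5.82, 6.46 and 6.35 with VAV1 and 4.45, 4.67 and 4.43 with saracatinib. Saracatinib lowered it below every other library of that experiment (-1.69 ± 0.22, adjusted p = 5.77e-05), the largest fall with saracatinib among the 44 genes on this scale (P4HA3 fell by a larger factor in mean normalized counts, from 14.7 to 3.84), and the VAV1 effect was 0.36 ± 0.22 (adjusted p = 0.216). Without RAC1 P29S it was at 3.25, 4.69 and 3.01, with replicate 2 above the other 2, and with it at 5.06, 5.55 and 5.16 (1.61 ± 0.43, adjusted p = 0.0167). That call was lost without empty vector replicate 1 or 3 or RAC1 P29S replicate 2 (adjusted p = 0.0505 to 0.0621), and the change was 0.91 with a pseudocount of 16.

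COL11A2 and COL2A1, fibrillar chains best known from cartilage, fell in both experiments, and COL11A1 was tested in neither. COL11A2, of type XI, was at 7.41, 7.25 and 7.90 in the empty vector with vehicle, 5.31, 6.18 and 5.68 with VAV1 and 6.28, 5.21 and 5.77 with saracatinib. VAV1 lowered it (-1.80 ± 0.29, adjusted p = 2.52e-04), and the saracatinib libraries overlapped those with VAV1 alone (0.03 ± 0.29, 95% interval -0.60 to 0.65). It was at 6.86, 6.98 and 7.44 without and 6.71, 6.30 and 6.18 with RAC1 P29S (-0.69 ± 0.20, adjusted p = 0.0239), a call lost without empty vector replicate 3 or RAC1 P29S replicate 2 or 3 (adjusted p = 0.0703 to 0.0884). COL2A1, the type II chain, was low: 5.61, 4.41 and 4.47 in the empty vector with vehicle against 1.94, 2.24 and 2.24 with VAV1. Its changes were -2.69 ± 0.68 (SE; adjusted p = 0.00609) with VAV1 and -1.52 ± 0.35 (SE; adjusted p = 0.00738) with RAC1 P29S, or -1.18 and -0.80 with a pseudocount of 16. COL27A1, a short fibrillar chain, differed by 0.26 ± 0.11 with VAV1 (adjusted p = 0.0804), fell by 0.73 ± 0.11 with saracatinib (adjusted p = 2.35e-04) and rose by 0.41 ± 0.13 with RAC1 P29S (adjusted p = 0.042). The RAC1 P29S call for COL27A1 was lost without any 1 of the 6 libraries other than empty vector replicate 3 (adjusted p = 0.054 to 0.132). COL24A1 had effects of 0.01 ± 0.72 with VAV1 and -0.08 ± 0.72 with saracatinib, with wide errors.

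Fibril-associated collagens, which decorate the surface of fibrils, included the steepest falls. COL19A1 was at 8.84, 8.78 and 8.90 in the empty vector with vehicle, 5.56, 6.30 and 6.21 with VAV1 and 7.80, 7.36 and 7.20 with VAV1 and saracatinib. The 3 groups were fully apart, with saracatinib between the others. VAV1 lowered COL19A1 7.03-fold (-2.81 ± 0.19, adjusted p = 9.91e-08), the largest fall of the 44 genes on the log2(normalized count + 1) scale, and saracatinib raised it by 1.43 ± 0.19 (SE; adjusted p = 8.26e-05). In mean normalized counts COL19A1 went from 457 to 65.7 with VAV1, and the low COL2A1 fell by a larger factor, from 29.7 to 3.42. It was at 9.999, 10.02 and 10.002 without and 7.86, 7.73 and 7.35 with RAC1 P29S (-2.36 ± 0.12, adjusted p = 2.79e-07), also the largest fall of the 41 genes there. COL9A3, a type IX chain and among the most abundant per kilobase, was at 11.88, 11.71 and 11.88, 9.50, 9.83 and 9.62 and 10.39, 10.56 and 10.42 in the first experiment. Again the groups were fully apart with saracatinib in the middle, at -2.18 ± 0.08 (SE; adjusted p = 2.07e-10) with VAV1 and 0.81 ± 0.08 (SE; adjusted p = 5.89e-06) with saracatinib. It was at 12.72, 12.54 and 12.45 without and 10.76, 11.07 and 10.86 with RAC1 P29S (-1.68 ± 0.09, adjusted p = 6.02e-07).

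COL9A2, the second type IX chain, fell as COL9A3 did but showed no call with saracatinib. It was at 7.25, 6.91 and 7.53, 4.64, 5.63 and 5.36 and 4.91, 4.42 and 4.35 in the first experiment, with the VAV1 and saracatinib libraries overlapping. Its change was -2.02 ± 0.28 (SE; adjusted p = 5.65e-05) with VAV1 and -0.65 ± 0.28 with saracatinib (adjusted p = 0.0814). It was at 8.52, 8.46 and 8.27 without and 6.46, 6.66 and 6.33 with RAC1 P29S (-1.93 ± 0.13, adjusted p = 2.37e-06). COL9A1, the third chain, was at or under 2.18 in every library of the first experiment and was not tested. COL12A1, which binds type I fibrils, went the opposite way to these. It was at 9.65, 9.56 and 9.57, 10.37, 10.61 and 10.50 and 10.03, 9.75 and 9.77 in the first experiment and at 8.82, 8.82 and 9.26 without and 10.13, 10.36 and 10.29 with RAC1 P29S. VAV1 raised it by 0.90 ± 0.08 (SE; adjusted p = 1.73e-06) and RAC1 P29S by 1.30 ± 0.12 (SE; adjusted p = 2.16e-05), while saracatinib lowered it (-0.64 ± 0.08, adjusted p = 5.27e-05). COL16A1 fell by 0.70 ± 0.17 with VAV1 (adjusted p = 0.00521) and fell by 0.44 ± 0.14 with RAC1 P29S (adjusted p = 0.0385). The RAC1 P29S call for COL16A1 was lost without any 1 library other than empty vector replicate 3 (adjusted p = 0.0552 to 0.122), and the change was -0.28 without empty vector replicate 2.

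The 2 type VIII chains, known from the sheet under the corneal endothelium and from vessel walls, moved in opposite directions with VAV1. COL8A1 was at 6.42, 5.94 and 5.86 in the empty vector with vehicle, 7.22, 7.98 and 7.75 with VAV1 and 6.25, 6.43 and 6.36 with saracatinib. The VAV1 libraries stood above the rest and the saracatinib libraries overlapped the empty vector. COL8A1 rose by 1.58 ± 0.20 (SE; adjusted p = 3.62e-05) with VAV1, the largest rise of the 44 genes, and fell by 1.30 ± 0.20 with saracatinib (adjusted p = 2.39e-04). It was at 5.88, 6.03 and 5.76 without and 5.87, 5.77 and 5.66 with RAC1 P29S, where the groups overlapped (-0.12 ± 0.18, 95% interval -0.53 to 0.28). COL8A2 was lower, at 4.97, 5.17 and 4.70 in the empty vector with vehicle and 2.81, 3.05 and 1.88 with VAV1 (-2.37 ± 0.43, adjusted p = 5.38e-04, or -1.11 with a pseudocount of 16), and was not tested in the second experiment. COL7A1, the chain of the anchoring fibrils of skin, fell by 0.57 ± 0.15 with VAV1 (adjusted p = 0.00686) and fell by 0.57 ± 0.18 with RAC1 P29S (adjusted p = 0.0394). The latter call was lost without any 1 library other than empty vector replicate 1 (adjusted p = 0.0501 to 0.125), and the change was -0.36 without empty vector replicate 3.

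Both membrane-spanning chains tested rose with VAV1 and with RAC1 P29S. COL17A1, a component of hemidesmosomes, was at 3.23, 3.27 and 3.74 in the empty vector with vehicle, 5.06, 4.85 and 4.48 with VAV1 and 6.07, 5.06 and 5.96 with saracatinib. It was at 3.50, 3.05 and 3.15 without and 6.48, 5.97 and 6.57 with RAC1 P29S. The groups with VAV1 or RAC1 P29S lay above their empty vectors without overlap, from a low starting level. RAC1 P29S raised COL17A1 by 3.10 ± 0.28 (SE; adjusted p = 1.47e-05), the largest rise of the 41 genes, and VAV1 by 1.38 ± 0.32 (SE; adjusted p = 0.00348). With a pseudocount of 16 these were 1.98 and 0.74. Saracatinib raised it by 0.90 ± 0.32 (SE; adjusted p = 0.0436), with overlapping libraries. That call was lost without any 1 of the 3 VAV1 vehicle libraries or of saracatinib replicates 1 and 3 (adjusted p = 0.0503 to 0.167). It was lost too with the replicate number as a block (adjusted p = 0.0535). COL13A1, found at cell adhesion sites, was at 7.77, 7.70 and 7.85, 8.69, 9.05 and 8.84 and 8.48, 8.33 and 8.37 in the first experiment and at 7.64, 7.47 and 7.33 without and 8.89, 8.69 and 9.09 with RAC1 P29S. It rose by 1.08 ± 0.10 (SE; adjusted p = 2.11e-06) with VAV1 and by 1.41 ± 0.13 (SE; adjusted p = 1.66e-05) with RAC1 P29S, and saracatinib lowered it (-0.46 ± 0.10, adjusted p = 0.00328).

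COL18A1, the basement membrane multiplexin whose end fragment is endostatin, was at 9.08, 8.71 and 9.28 in the empty vector with vehicle, 7.13, 6.77 and 6.80 with VAV1 and 7.87, 8.07 and 8.02 with saracatinib. The saracatinib libraries lay between the other groups, apart from both. VAV1 lowered it 4.35-fold (-2.12 ± 0.15, adjusted p = 7.46e-08) and saracatinib raised it 2.12-fold (1.08 ± 0.15, adjusted p = 7.03e-05). It was at 9.16, 9.13 and 8.89 without and 8.32, 8.001 and 8.02 with RAC1 P29S (-0.95 ± 0.12, adjusted p = 1.52e-04). COL15A1, the other multiplexin, was low, with effects of 0.31 ± 0.38 with VAV1, 0.74 ± 0.38 with saracatinib and 0.23 ± 0.27 with RAC1 P29S, none of them called.

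Of the 10 enzymes and chaperones of the endoplasmic reticulum tested, 8 were lower and 1 (PLOD2) was higher with VAV1, and 8 were lower with RAC1 P29S. Of all genes tested, 20.1% were lower and 23.6% higher with VAV1, and 15.5% were lower with RAC1 P29S. P4HA1 and P4HA2, the catalytic subunits of prolyl 4-hydroxylase, fell with VAV1 (-0.48 ± 0.06 and -0.64 ± 0.08) and with RAC1 P29S (-0.35 ± 0.06 and -0.30 ± 0.08). Saracatinib raised them by 0.52 ± 0.06 and 0.53 ± 0.08, to levels that differed from the empty vector by 0.04 ± 0.06 (95% interval -0.10 to 0.18) and -0.11 ± 0.08 (-0.28 to 0.06). P4HB, the shared subunit that is also protein disulfide isomerase, fell with VAV1 (-0.21 ± 0.05) and with RAC1 P29S (-0.30 ± 0.05). Its rise of 0.14 ± 0.05 with saracatinib (adjusted p = 0.0274) was lost without VAV1 vehicle replicate 2 or 3 or saracatinib replicate 1 or 2 (adjusted p = 0.0563 to 0.0887). The P4HA2 call with RAC1 P29S was lost without empty vector replicate 1 or RAC1 P29S replicate 2 (adjusted p = 0.063 to 0.0635). P4HA3, the least expressed subunit, differed by 0.99 ± 0.57 with VAV1 (adjusted p = 0.184) and was called lower with saracatinib (-1.54 ± 0.57, adjusted p = 0.049) and with RAC1 P29S (-0.90 ± 0.31, adjusted p = 0.0496). The first of these calls was lost without empty vector replicate 3, VAV1 vehicle replicate 1 or 3, or any 1 saracatinib library (adjusted p = 0.0601 to 0.216). The second was lost without any 1 of the 6 libraries (adjusted p = 0.0732 to 0.149). With the replicate number as a block the adjusted p was 0.0536 with saracatinib and 0.0831 with RAC1 P29S.

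The lysyl hydroxylases divided by gene. PLOD3, which also glycosylates collagen, fell by 0.74 ± 0.07 (SE; adjusted p = 1.56e-06) with VAV1, fell by 0.71 ± 0.06 (SE; adjusted p = 1.52e-05) with RAC1 P29S, and rose by 0.36 ± 0.07 (SE; adjusted p = 0.00112) with saracatinib. PLOD1 fell with VAV1 (-0.40 ± 0.05) and RAC1 P29S (-0.27 ± 0.06), the latter call lost without the trend and robust options of the variance model (adjusted p = 0.0531). PLOD2, which hydroxylates the telopeptides that carry crosslinks, was at 10.22, 10.16 and 10.09 in the empty vector with vehicle and 10.50, 10.43 and 10.52 with VAV1, and was the only enzyme among the 16 helpers tested that rose with VAV1 (0.33 ± 0.05, adjusted p = 3.01e-04). Its RAC1 P29S effect was 0.16 ± 0.10 (95% interval -0.06 to 0.38). The galactosyltransferase COLGALT1 fell with VAV1 (-0.32 ± 0.04) and with RAC1 P29S (-0.27 ± 0.05). COLGALT2 fell by 0.63 ± 0.16 with VAV1 and rose by 0.52 ± 0.16 with saracatinib (adjusted p = 0.024), a rise that lost its call without VAV1 vehicle or saracatinib replicate 2 or 3 (adjusted p = 0.0523 to 0.0794). SERPINH1, the collagen chaperone also called HSP47, was at 10.98, 10.93 and 10.96 in the empty vector with vehicle, 10.52, 10.37 and 10.49 with VAV1 and 10.58, 10.52 and 10.60 with saracatinib. It fell by 0.50 ± 0.05 (SE; adjusted p = 7.26e-06) with VAV1 and fell by 0.64 ± 0.07 (SE; adjusted p = 7.14e-05) with RAC1 P29S, and the saracatinib effect was 0.11 ± 0.05 (adjusted p = 0.148).

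In the trimming of procollagen, BMP1 and its enhancer PCOLCE ended above the empty vector once saracatinib was added. PCOLCE was at 10.98, 10.72 and 10.83 in the empty vector with vehicle, 10.16, 10.07 and 10.02 with VAV1 and 11.14, 11.13 and 11.19 with saracatinib. All 3 groups were apart, and the saracatinib libraries were the highest. The change was -0.76 ± 0.07 (SE; adjusted p = 8.16e-07) with VAV1, 1.07 ± 0.07 (SE; adjusted p = 5.13e-08) with saracatinib, and 0.31 ± 0.07 (SE; adjusted p = 0.00217) between VAV1 with saracatinib and the empty vector. BMP1 showed -0.33 ± 0.09, 0.65 ± 0.09 and 0.32 ± 0.09 in the same comparisons, all called. With RAC1 P29S PCOLCE went from 9.49, 9.45 and 9.38 to 8.56, 8.50 and 8.60 (-0.89 ± 0.08, adjusted p = 1.16e-05), and BMP1 differed by -0.18 ± 0.10 (adjusted p = 0.192). PCOLCE2 was not called in any of the 3 comparisons, with effects of -0.34 ± 0.21, 0.36 ± 0.21 and -0.28 ± 0.15.

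Of the lysyl oxidases, which oxidise lysines for crosslinking, LOXL3 and LOXL4 fell strongly and LOXL2 did not. LOXL4 was at 13.55, 13.48 and 13.54 in the empty vector with vehicle, 10.95, 11.08 and 11.05 with VAV1 and 11.19, 11.22 and 11.20 with saracatinib. LOXL3 was at 12.16, 12.10 and 12.12, 10.55, 10.45 and 10.48 and 10.51, 10.39 and 10.55. Both dropped with VAV1 and stayed near the VAV1 level under saracatinib. LOXL4 fell 5.64-fold with VAV1 (-2.50 ± 0.05, adjusted p = 1.56e-13), and its saracatinib effect was 0.18 ± 0.05 on the log2 scale (adjusted p = 0.00697). LOXL3 fell 3.11-fold (-1.64 ± 0.05, adjusted p = 3.81e-11), and the saracatinib effect was -0.01 ± 0.05 (95% interval -0.12 to 0.11). In the second experiment LOXL4 was at 11.80, 11.85 and 11.76 without and 10.45, 10.42 and 10.49 with RAC1 P29S (-1.35 ± 0.05, adjusted p = 2.73e-08). LOXL3 was at 12.12, 12.16 and 11.97 without and 10.94, 10.91 and 10.96 with RAC1 P29S (-1.15 ± 0.06, adjusted p = 1.91e-07), and neither gene's groups overlapped. LOXL2, which crosslinks type IV collagen, was at 11.31, 11.14 and 11.18, 11.29, 11.36 and 11.47 and 11.33, 11.12 and 11.28 in the first experiment with all groups overlapping (0.16 ± 0.07 with VAV1, 95% interval 0.02 to 0.31). With RAC1 P29S it went from 10.66, 10.80 and 10.39 to 11.01, 10.95 and 11.20, a rise of 0.44 ± 0.10 (SE; adjusted p = 0.0107) that did not pass without those trend and robust options (adjusted p = 0.0595). The intervals of the VAV1 effect, -1.75 to -1.52 for LOXL3 and -2.59 to -2.40 for LOXL4, lie below that of LOXL2; the difference between the genes was not tested.

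**Figure D3:**
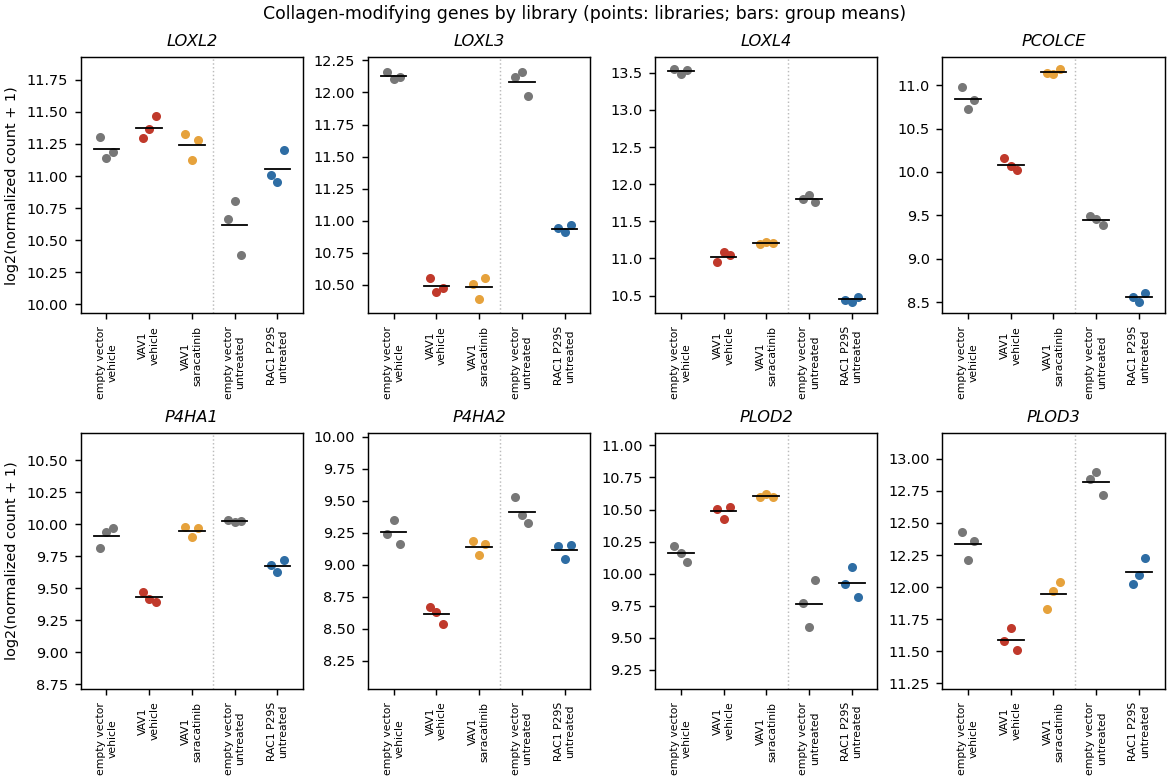
Level of 8 collagen-modifying genes (vertical axes, log2(normalized count + 1), each panel spanning its own range) in each of the 15 libraries (points) with the group mean (bars), the dotted line separating the experiments. With saracatinib LOXL3 and LOXL4 stay low, P4HA1 and P4HA2 lie at about the empty vector level and PCOLCE lies above it. PLOD2 is raised in both VAV1 groups.

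LOX itself and LOXL1 were below the limit for testing in both experiments. LOXL1 was at 2.02, 0.00 and 2.05 in the empty vector with vehicle, 4.33, 3.34 and 4.89 with VAV1 and 3.17, 3.38 and 3.19 with saracatinib. It was listed at 0 in all 3 untreated empty vector libraries and was at 3.55, 3.18 and 2.83 with RAC1 P29S, so no fold is given. The other genes tested in neither experiment were COL1A2, COL4A3, COL9A1, COL11A1, COL14A1, COL21A1, COL22A1, COL25A1, COL26A1 and COL28A1, all at or under 4.40 in every library that had a value. Among these, COL22A1 was at 4.19, 2.58 and 3.06 in the untreated empty vector and 0.76, 0.67 and 0.79 with RAC1 P29S, and COL14A1 at 3.11, 3.12 and 3.01 and 1.51, 1.55 and 0.94. At these levels a difference between groups was not tested.

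The effects of VAV1 and RAC1 P29S, which rest on separate libraries, were alike in direction for most of the 41 genes tested in both. Lower in both were 23 of the 41, where 10.2% of all 13810 genes tested in both were lower in both. These were 23 of the 26 lower with VAV1 and 23 of the 24 lower with RAC1 P29S. Over all genes, 1412 of the 13810 tested in both were lower in both. The totals lower were 2893 of 14410 with VAV1 and 2175 of 14036 with RAC1 P29S, which include genes tested in only 1 experiment. Higher in both were 3 of the 41, COL12A1, COL13A1 and COL17A1, where 10.9% of all genes were. These were 3 of the 5 higher with VAV1 and 3 of the 11 higher with RAC1 P29S. Over all genes, 1505 of the 13810 were higher in both, and the totals higher were 3399 of 14410 with VAV1 and 2194 of 14036 with RAC1 P29S. COL5A2 alone was called in opposite directions (1.09% of all genes). Its 2 empty vectors also stood apart, at means of 12.27 with vehicle and 10.93 untreated, against 11.58 with VAV1 and 11.53 with RAC1 P29S. Across the 41 genes the log2 fold changes had a Pearson r of 0.79 and a Spearman rho of 0.83, and across all 13810 genes 0.74 and 0.58. Genes are not independent replicates, each point shares its libraries with all others, and the 2 experiments share the cell line and processing. A further 7 genes were higher with RAC1 P29S and not called with VAV1, namely COL1A1, COL4A5, COL4A6, COL5A1, COL6A3, COL27A1 and LOXL2. Of these, only COL4A5 and COL6A3 had effects that differed between VAV1 and RAC1 P29S when the difference was tested. The share of all genes with this pattern was not counted.

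The difference between the 2 effects was tested in 1 fit of all 15 libraries, each effect against its own empty vector. VAV1 moved 14 of 41 genes further down (or less up) than RAC1 P29S and moved 1 further up, where 7.7% and 8.14% of all genes were called (15.8% in all). The median difference was -0.36, against 0.01 over all genes. The largest differences below 0 were those of COL4A5 (-1.76 ± 0.43 (SE; adjusted p = 0.0111)), COL17A1 (-1.72 ± 0.43 (SE; adjusted p = 0.0114)) and COL5A2 (-1.28 ± 0.07 (SE; adjusted p = 2.05e-09)). COL8A1, raised with VAV1, was the gene called with a difference above 0 (1.70 ± 0.27 (SE; adjusted p = 4.78e-04)). P4HA3 had a larger difference with a wide error that did not pass (1.88 ± 0.68, adjusted p = 0.0681). Among genes that fell in both, the VAV1 fall was the deeper for COL18A1, LOXL4, COL5A3, COL4A2, COL6A1, COL4A1, COL9A3, LOXL3, COL6A2 and P4HA2. The COL5A3 difference was lost with pseudocounts of 4 and 16 (-0.23 with 16). The COL6A2 difference was lost without any 1 of 10 libraries (adjusted p = 0.0508 to 0.113) and the P4HA2 difference without any 1 of 8 (adjusted p = 0.0534 to 0.0965). The 2 experiments also differ in vehicle against no named treatment, which cannot be told apart from the transgene in this difference. COL4A5 averaged 6.80 and 4.82 in the vehicle and untreated empty vectors, and 6.23 and 6.01 with VAV1 and RAC1 P29S. As for COL5A2, the empty vectors stood further apart than the transgene groups. COL17A1 (3.41 and 3.24, then 4.80 and 6.34) and COL8A1 (6.075 and 5.89, then 7.65 and 5.77) showed the reverse. Levels were not tested between experiments.

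**Figure D4:**
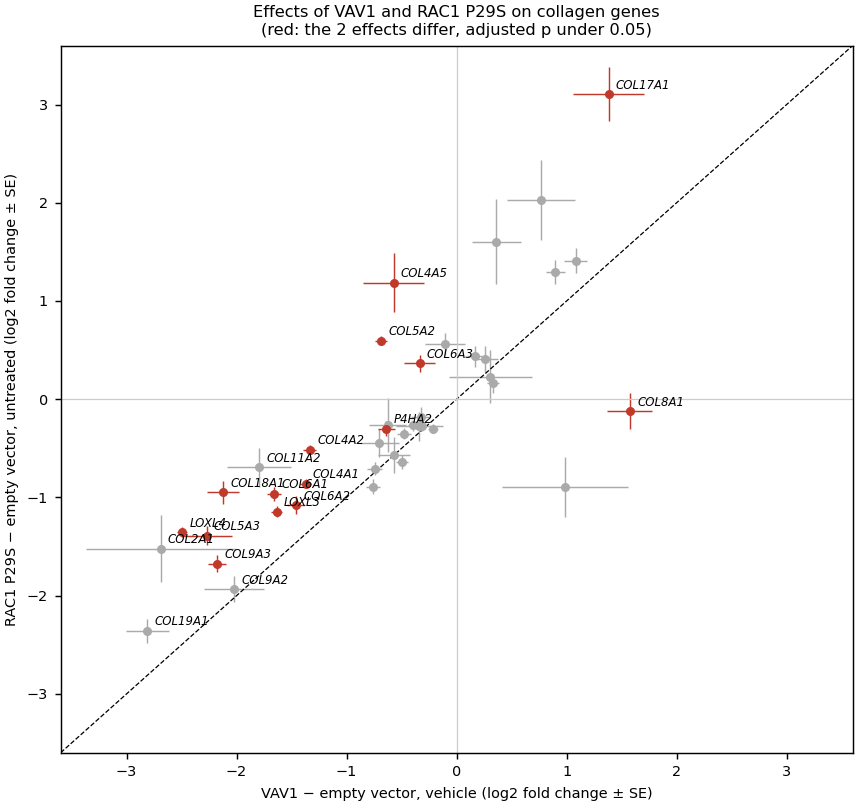
Log2 fold change with VAV1 (horizontal axis) against that with RAC1 P29S (vertical axis), each against its own empty vector with standard errors, for the 41 collagen genes tested in both experiments; the dashed line marks equal effects and red points are the 15 genes whose effects differed. Most points lie above the dashed line, and COL8A1 and P4HA3 lie farthest below it, P4HA3 without a call.

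Against VAV1 vehicle, the 18 genes higher with saracatinib were 10 chains (COL4A4, COL4A5, COL4A6, COL5A3, COL6A1, COL6A2, COL9A3, COL17A1, COL18A1 and COL19A1) and 8 helpers (P4HA1, P4HA2, P4HB, PLOD3, COLGALT2, BMP1, PCOLCE and LOXL4). The 11 lower genes were COL1A1, COL4A1, COL4A2, COL5A1, COL5A2, COL6A3, COL8A1, COL12A1, COL13A1, COL27A1 and P4HA3. Since this comparison shares the VAV1 vehicle libraries with that of VAV1 against the empty vector, no overlap of the 2 lists is given. VAV1 with saracatinib against the empty vector with vehicle gave 10 higher and 24 lower genes of 44, where 22.4% of all genes were higher and 21.0% lower (43.4% in all). Among the 10, COL12A1 lost its call without empty vector replicate 2 or 3 or saracatinib replicate 1 (adjusted p = 0.0709 to 0.131), with a change of 0.16 in place of 0.25 ± 0.08 without the last. COL15A1 (1.05 ± 0.38, adjusted p = 0.0392) lost it without any 1 empty vector library or saracatinib replicate 1 or 2 (adjusted p = 0.0681 to 0.142). COL4A4 (1.21 ± 0.38, adjusted p = 0.0194) lost it without empty vector replicate 2 or saracatinib replicate 1 (adjusted p = 0.0632 to 0.0985). Among the 24 lower genes, COL2A1 (-2.48 ± 0.68) lost its call without empty vector replicate 1 (adjusted p = 0.0516), and its change was -1.55 without saracatinib replicate 3.

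Genes that work beside collagens were taken from 8 lists (105 genes, of which 90 were tested in the first experiment and 86 in the second). With VAV1 26 were higher and 33 lower, where 23.6% of all genes tested were higher and 20.1% lower. With saracatinib 33 were higher and 13 lower (18.3% and 19.1% of all genes), and with RAC1 P29S 17 were higher and 24 lower (15.6% and 15.5%). The counts for the single lists below are to be read against the same shares, and each list is small. Basement membrane partners, which include laminins and nidogens, had 5 higher and 9 lower of 15 with VAV1, 6 and 0 with saracatinib, and 3 and 6 with RAC1 P29S. NID1, which bridges laminin and type IV collagen, changed by -0.87 ± 0.05 with VAV1, 0.57 ± 0.05 with saracatinib and -0.39 ± 0.05 with RAC1 P29S. The laminin chain gene LAMA4 changed by -1.44 ± 0.08, 1.07 ± 0.08 and -2.03 ± 0.07, and FREM2 by -1.88 ± 0.14, 0.74 ± 0.14 and -1.37 ± 0.19, all called. LAMA1 rose by 3.97 ± 0.11 with VAV1 and 1.42 ± 0.15 with RAC1 P29S, the reverse of COL4A1 and COL4A2, and its saracatinib effect was 0.16 ± 0.11 (adjusted p = 0.282).

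Collagen receptors had 1 higher and 4 lower of 8 with VAV1, 6 and 2 with saracatinib, and 2 and 2 with RAC1 P29S. ITGA1, the alpha chain of a collagen-binding integrin, fell with VAV1 (-1.69 ± 0.12) and RAC1 P29S (-1.17 ± 0.09) and rose by 2.34 ± 0.12 with saracatinib. ITGA2, of a second such integrin, rose by 1.05 ± 0.06 with saracatinib and 0.41 ± 0.07 with RAC1 P29S, and its VAV1 effect was 0.11 ± 0.06 (adjusted p = 0.195). The receptor tyrosine kinase gene DDR1 changed by -0.91 ± 0.07, 0.52 ± 0.07 and -0.36 ± 0.09 with VAV1, saracatinib and RAC1 P29S, and OSCAR by 2.89 ± 0.38, -1.71 ± 0.38 and 2.39 ± 0.51, all called. OSCAR was low and passed the filter of the second experiment only through the RAC1 P29S libraries. Genes of collagen breakdown and uptake had 4 higher and 6 lower of 13 with VAV1, 9 and 0 with saracatinib, and 4 and 4 with RAC1 P29S. MMP1, the interstitial collagenase, rose by 2.72 ± 0.10 with saracatinib, by 0.67 ± 0.10 with VAV1 and by 0.96 ± 0.14 with RAC1 P29S. MMP16, a membrane-bound metalloproteinase, changed by -1.45 ± 0.06 with VAV1, 0.55 ± 0.06 with saracatinib and -0.85 ± 0.07 with RAC1 P29S. The lysosomal proteases CTSB and CTSL rose by 0.78 ± 0.05 and 0.94 ± 0.06 with saracatinib.

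The list of fibril-associated proteoglycans and glycoproteins was mixed, with 5 higher and 4 lower of 14 with VAV1, 3 and 3 with saracatinib, and 6 and 3 of 13 with RAC1 P29S. TNC, tenascin-C, changed by -2.72 ± 0.06 with VAV1, 0.75 ± 0.06 with saracatinib and -1.44 ± 0.06 with RAC1 P29S, and THBS1, thrombospondin, by 1.26 ± 0.07, -1.90 ± 0.07 and 0.88 ± 0.04. TGFBI, which binds collagens and integrins, rose by 0.60 ± 0.05 with VAV1 and 1.60 ± 0.05 with RAC1 P29S. FN1, fibronectin, fell by 0.55 ± 0.09 with VAV1 and rose by 0.98 ± 0.06 with RAC1 P29S, as COL5A2 did. Among genes of folding and prolyl 3-hydroxylation, 3 were higher and 6 lower of 14 with VAV1, 4 and 1 with saracatinib, and 0 and 5 with RAC1 P29S. SPARC, a collagen-binding glycoprotein, changed by -1.11 ± 0.03, 0.96 ± 0.03 and -0.81 ± 0.04 with VAV1, saracatinib and RAC1 P29S. P3H2, a prolyl 3-hydroxylase, rose by 2.23 ± 0.15 with VAV1, and its RAC1 P29S effect was -0.11 ± 0.22 (adjusted p = 0.745). The prolyl isomerases FKBP10 and PPIB fell with VAV1 (-0.34 ± 0.05 and -0.23 ± 0.05).

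Proline and glycine supply had 6 higher and 2 lower of 12 with VAV1, 2 and 7 with saracatinib, and 1 and 3 of 11 with RAC1 P29S. PSAT1, PHGDH and SHMT2, of serine and glycine synthesis, fell with saracatinib (-1.50 ± 0.05, -1.12 ± 0.04 and -0.80 ± 0.04), and PYCR1, which makes proline, fell by 1.28 ± 0.07. With VAV1 these 4 changed by 0.94 ± 0.05, 0.12 ± 0.04, 0.31 ± 0.04 and 0.44 ± 0.07. Of other genes for propeptide and crosslink processing, 0 were higher and 2 lower of 4 with VAV1. These were FURIN (-0.73 ± 0.06), a convertase that activates procollagen proteinases, and the procollagen proteinase ADAMTS3 (-0.70 ± 0.14). With saracatinib ADAMTS3 rose by 0.72 ± 0.14, and with RAC1 P29S FURIN fell by 0.46 ± 0.05. ADAMTS2 and TLL2 had VAV1 effects of 1.35 ± 0.52 (adjusted p = 0.0507) and -0.66 ± 0.46 (adjusted p = 0.275). Secretion genes, which carry large procollagens out of the endoplasmic reticulum, had 2 higher and 0 lower of 10 with VAV1, 2 and 0 with saracatinib, and 1 and 0 with RAC1 P29S. They were SAR1B (0.35 ± 0.08) and SEC13 with VAV1 (0.17 ± 0.05), SEC23A (0.31 ± 0.08) and SEC24D (0.39 ± 0.11) with saracatinib, and the transcription factor gene CREB3L1 with RAC1 P29S (2.87 ± 0.59). CREB3L1 was low, at 2.17, 0.51 and 2.61 in the untreated empty vector and 4.62, 5.15 and 4.10 with RAC1 P29S. It passed the filter of that experiment only through the RAC1 P29S libraries.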

How the data were processed

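RNA-seq libraries of A375 cells were deposited by the authors as 1 file per library with 1 log2 value per gene symbol, which the values show to be log2(normalized count + 1) with a pseudocount of 1. Per the submitters' processing notes, kallisto, DESeq2 and GRCh38 were used, and their versions and roles are not given in the sources used here. The values were checked for steps of whole reads. At the best step found, 47.1% to 53.6% of low values (normalized counts from 0.3 to 6) were whole multiples within 0.1, so reads were not recovered and no count test was run. Depth is known only as summed normalized counts, and the spread between the 3 libraries of a group sets the precision.

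Groups followed the sample titles. Genes that reached a normalized count of 10 in 3 or more libraries of an experiment were tested with limma 3.58.1 in R 4.3.3, with 1 mean per group, empirical Bayes with trend and robust options, two-sided tests and Benjamini-Hochberg adjustment over all genes tested. A gene was called at an adjusted p under 0.05. The 95% intervals use limma's moderated t distribution. The 9 libraries of the first experiment shared 1 fit, the 6 of the second another, and the difference of the VAV1 and RAC1 P29S effects used all 15. Levels were tested within an experiment only, since the experiments may have been normalized separately. The fit was tested on simulated data, and the recovery asked of it there was lowered after the saracatinib comparison fell short of the first limit. The collagen genes and the lists of partner genes and markers were chosen with earlier results of these data known. Values in every library are given for genes called in the VAV1, saracatinib or RAC1 P29S comparison with an absolute log2 fold change of at least 1 and a higher group mean of at least 5. COL4A4, COL2A1, COL8A2, PLOD2, SERPINH1, LOXL1, LOXL2, COL14A1 and COL22A1 were added after their values were seen. Partner genes named are the 4 per list with the smallest adjusted p in any of these comparisons, and SEC13 was added after its values were seen. Alternatives changed the filter, scaling, pseudocount, variance model, libraries in the fit and replicate block, or left out 1 library.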

Additional observations from a re-analysis of the deposited data

Results flagged for a closer look

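The effect of VAV1 and that of RAC1 P29S, each against its own empty vector, differed for 15 of the 41 collagen genes tested in both (limma on all 15 libraries, adjusted p under 0.05). Of all 13810 genes tested in both, 15.8% differed, 7.7% below 0 and 8.14% above. Values are the VAV1 effect minus the RAC1 P29S effect on the log2 scale. Among basement membrane chains the difference was -1.76 for COL4A5, -0.82 for COL4A2 and -0.51 for COL4A1. The 3 type VI chains gave -0.70 for COL6A3, -0.70 for COL6A1 and -0.38 for COL6A2. The fibrillar chains COL5A2 and COL5A3 gave -1.28 and -0.88. Other chains below 0 were COL17A1 (-1.72), COL18A1 (-1.17) and COL9A3 (-0.50). The enzymes were LOXL4 (-1.14), LOXL3 (-0.49) and P4HA2 (-0.34). COL8A1 was the gene called with a difference above 0, at 1.70. COL5A2 was the gene called lower with VAV1 and higher with RAC1 P29S. Its empty vector means also differed, at 12.27 with vehicle and 10.93 untreated, and levels were not tested between experiments.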

How the results depend on the processing

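Of 145 called results for single collagen genes, 124 kept their call in every alternative run and 21 lost it at least once. Among 2817 recomputed values 0 reversed and 107 were no longer past the threshold. The count of genes higher in VAV1 with saracatinib against empty vector went from 10 to 6 when a normalized count of at least 50 was asked for, which left 36 collagen genes to test. Over all genes, 2968 of 12039 were higher at that limit. The count with a VAV1 effect above the RAC1 P29S effect went from 1 to 2 with a pseudocount of 16, and ranged from 1 to 2 when 1 library was left out (2 without empty vector vehicle replicate 2 or VAV1 vehicle replicate 2). No other count of collagen or partner genes moved by over 1.5 times. With quantile normalization the saracatinib effect on COL4A2 was -0.12, and the cause was not tested. With a pseudocount of 16 the COL5A3 difference between VAV1 and RAC1 P29S was -0.23, and a larger pseudocount by construction shrinks changes of low genes. Empirical Bayes without trend and robust ended 11 of the 145 calls, the most of any alternative that kept all libraries. They were COL1A1, COL7A1, COL11A2, COL16A1, COL27A1, LOXL2 and PLOD1 with RAC1 P29S, P4HA3 and P4HB with saracatinib, COL12A1 in VAV1 with saracatinib and COL6A2 in the difference. Replicate numbers did not pair the libraries: residuals of libraries with the same number had correlations of -0.05 to 0.01. With the replicate block the collagen counts (higher and lower) were 5 and 27 with VAV1, 17 and 10 with saracatinib, 10 and 24 for VAV1 with saracatinib, 10 and 23 with RAC1 P29S, and 1 and 13 for the difference. Over all genes the first 3 pairs were 3212 and 2739, 2478 and 2583, and 3090 and 2850 of 14410. The last 2 pairs were 1954 and 1934 of 14036 and 1030 and 981 of 13810. Calls lost under the block were those of COL6A2 in the difference, COL27A1 and P4HA3 with RAC1 P29S, and COL17A1 and P4HA3 with saracatinib. With 3 libraries a group and no raw depth, small changes of genes near a normalized count of 10 were not detectable.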
